A study of Arabidopsis thaliana with 12 samples.

Results

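The 7 genes described here are nuclear genes of Arabidopsis photosynthesis and chlorophyll synthesis, followed through the end of seed maturation: PRK (AT1G32060), SBPASE (AT3G55800), ATPC1 (AT4G04640), PSBY (AT1G67740), PSAE-1 (AT4G28750), TROL (AT4G01050) and AT1G74470, which encodes geranylgeranyl reductase. They were taken as the probe sets of the ATH1 array whose platform annotation names one of these genes alone, and each gene had 1 such probe set, so the members are 7 of the 13513 probe sets that name a single gene and of the 22746 probe sets tested. The genes were picked because of how they behaved on these same arrays. Their levels and differences are therefore a description and carry no p-value.

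The arrays measured RNA of excised seeds from plants of the Wassilewskija accession, grown without treatment in a greenhouse under long days. The samples fall into 6 groups of 2 arrays: KD seeds at 14 days after flowering (14DAF), at 16DAF and after drying, and wild-type (WT) seeds at 14DAF, at 16DAF and after drying. The labels call KD a mutant with altered lysine metabolism and do not spell out the letters. The series text cites work by Zhu and Galili, who joined loss of the lysine catabolism gene LKR/SDH to a bacterial enzyme of lysine synthesis expressed in seeds, but neither that text nor the labels state which alterations are present in KD seeds. Each RNA extract came from many pooled seeds and was amplified in a 2-cycle labelling, and nothing in the labels ties the arrays of a group to separate plants, so each p-value reflects the spread among these extracts alone, which may be technical.

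The source name of 2 arrays, WT 16DAF replicate 1 and KD dry replicate 1, gives the other genotype than their title, and the title was followed. The title of WT dry replicate 1 gives WS in place of WT, and the array was taken as WT. LKR/SDH lay between 12.8 and 13.88 on the log2 scale in the 6 arrays titled KD and between 8.87 and 10.61 in the 6 taken as WT. The arrays thus separate by these groups, with the higher level under KD. That direction is opposite to the loss of LKR/SDH in the cited work. Whether the probe set lies outside an altered part of the gene, or the genotype names are exchanged in the labels as a whole, was not tested. KD and WT stand here for the arrays so grouped. Replicates correlated at 0.983 to 0.993 over all probe sets, and array medians lay between 4.91 and 5.28. WT 14DAF replicate 2 stood apart for the genes described here: it was the highest array for 7 of 7, by 0.35 to 1.6 log2 units over the next array. Stage and genotype differences of the 7 genes that use this array are summarised with and without it. Shares of decline, correlations, pattern comparisons, tissue markers and plastid-encoded genes were not recomputed without it.

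As background, seeds of oilseed plants such as Arabidopsis are green while they fill, and their embryo plastids use light to make energy carriers and to recapture carbon dioxide released during oil synthesis. Nuclear genes supply most proteins of this machinery, among them the antenna, small photosystem subunits, part of the ATP synthase, the Calvin cycle enzymes and the enzymes of chlorophyll synthesis. As the seed matures and dries, chlorophyll is broken down and photosynthesis ends.

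Values below are log2 signal as deposited, for replicates 1 and 2 of each group. The array gives no comparison of level between genes, so levels are compared within a gene only. All 7 genes had their highest group mean in WT seeds at 14DAF and the next in KD seeds at 14DAF, and for 6 of 7 the lowest group means were those of dry KD and dry WT seeds. In whole seeds, fewer cells of a type and less RNA per cell cannot be told apart.

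Among the Calvin cycle enzymes, PRK encodes phosphoribulokinase, which makes the sugar bisphosphate that Rubisco uses. In KD seeds PRK read 7.83 and 6.99 at 14DAF, 5.49 and 5.54 at 16DAF, and 3.92 and 3.57 when dry. In WT seeds PRK read 8.13 and 9.68 at 14DAF, 4.76 and 5.14 at 16DAF, and 4.06 and 3.35 when dry. The groups of the same genotype did not overlap between stages, and only the dry groups overlapped between genotypes. PRK spanned 6.33 log2 units over the 12 arrays, an 80.4-fold range that rests on 2 single arrays. The upper end was WT 14DAF replicate 2, 1.55 above the next array. The lower end was WT dry replicate 2, at 3.35 below that array's lower quartile of 3.74.

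SBPASE encodes sedoheptulose-1,7-bisphosphatase, an enzyme of the regeneration phase of the same cycle. In KD seeds SBPASE read 6.67 and 6.46 at 14DAF, 6.48 and 6.50 at 16DAF, and 4.76 and 4.79 when dry. In WT seeds SBPASE read 7.19 and 7.91 at 14DAF, 5.59 and 5.25 at 16DAF, and 4.41 and 4.23 when dry. KD seeds at 16DAF overlapped KD seeds at 14DAF, the only overlap between successive stages among the 7 genes in either genotype. KD arrays lay below WT arrays at 14DAF and above them at 16DAF and in dry seeds.

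ATPC1 encodes the gamma subunit of the chloroplast ATP synthase, the rotating shaft of the enzyme that makes ATP from the proton gradient. In KD seeds ATPC1 read 7.05 and 6.20 at 14DAF, 5.44 and 5.90 at 16DAF, and 4.94 and 4.61 when dry. In WT seeds ATPC1 read 7.61 and 8.99 at 14DAF, 5.51 and 6.0 at 16DAF, and 4.94 and 4.72 when dry. KD and WT arrays were separate at 14DAF and overlapped at 16DAF and in dry seeds. ATPC2, which encodes another gamma subunit, read 7.71 and 7.46, 7.45 and 7.50, and 7.62 and 7.50 in KD seeds at 14DAF, 16DAF and when dry, against 8.08 and 8.26, 7.50 and 7.89, and 8.12 and 7.97 in WT seeds. No stage step or genotype difference of ATPC2 passed the limma test, the smallest adjusted p being 0.0577 for KD minus WT at 14DAF (log2 difference of -0.59).

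PSBY encodes a small subunit of photosystem II, the complex that splits water. In KD seeds PSBY read 8.56 and 8.57 at 14DAF, 7.38 and 7.49 at 16DAF, and 5.27 and 5.11 when dry. In WT seeds PSBY read 8.97 and 9.71 at 14DAF, 6.98 and 6.39 at 16DAF, and 4.93 and 5.06 when dry. The 6 groups did not overlap with their neighbours in order of level, which ran from WT 14DAF through KD 14DAF, KD 16DAF, WT 16DAF and KD dry to WT dry.

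PSAE-1 encodes one of the subunits on the stromal side of photosystem I, where ferredoxin is reduced. In KD seeds PSAE-1 read 8.40 and 7.50 at 14DAF, 6.82 and 6.81 at 16DAF, and 5.18 and 4.84 when dry. In WT seeds PSAE-1 read 8.42 and 9.53 at 14DAF, 6.63 and 6.84 at 16DAF, and 4.36 and 4.27 when dry. The genotypes overlapped at 16DAF and were narrowly separate at 14DAF, where KD was lower, and separate in dry seeds, where KD was higher. Of the other photosystem I genes, PSAN was uneven between WT replicates at 14DAF, at 4.01 and 7.17.

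TROL encodes a rhodanese-like protein that tethers ferredoxin-NADP reductase to the thylakoid membrane, at the last step of linear electron transport. In KD seeds TROL read 7.67 and 7.77 at 14DAF, 6.99 and 6.88 at 16DAF, and 4.31 and 4.29 when dry. In WT seeds TROL read 7.48 and 8.12 at 14DAF, 5.08 and 4.72 at 16DAF, and 4.58 and 4.11 when dry. The genotypes overlapped at 14DAF and in dry seeds, and at 16DAF both KD arrays lay far above both WT arrays.

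AT1G74470 encodes geranylgeranyl reductase, which reduces the isoprenoid tail that is joined to chlorophyll and to tocopherols. In KD seeds AT1G74470 read 8.29 and 8.12 at 14DAF, 6.09 and 6.41 at 16DAF, and 4.63 and 4.03 when dry. In WT seeds AT1G74470 read 8.16 and 9.89 at 14DAF, 4.33 and 4.43 at 16DAF, and 5.18 and 4.44 when dry. This was the one gene of the 7 whose WT level was lower at 16DAF than in dry seeds, by 0.43 ± 0.459 (SE) on the log2 scale, and the WT arrays of these 2 stages were only narrowly separate. The genotypes overlapped at 14DAF and were separate at 16DAF, where KD was higher.

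**Figure D1:**
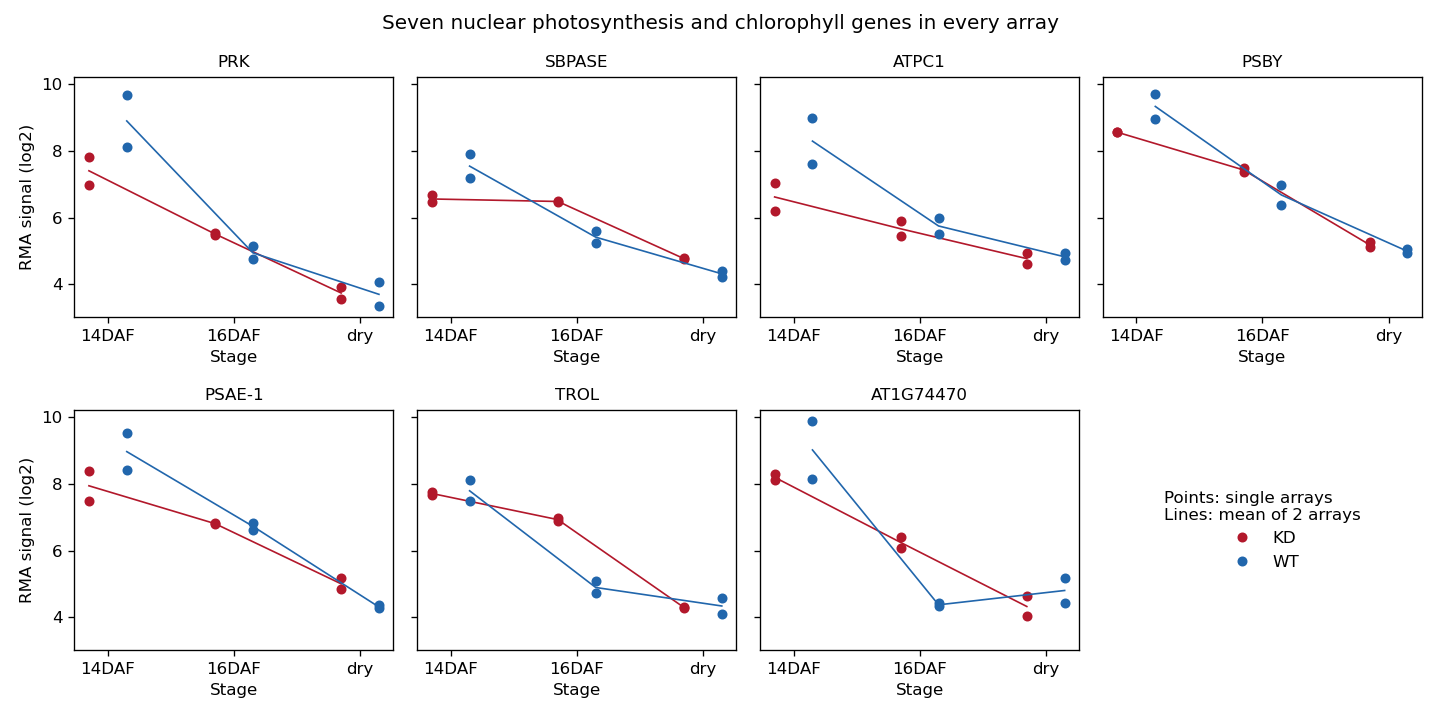
Log2 signal (vertical axis) of each of the 7 genes at 14DAF, 16DAF and in dry seeds (horizontal axis), 1 panel a gene, with KD and WT seeds in different colours; points are single arrays and lines join means of 2 arrays. The WT line drops mostly between 14DAF and 16DAF for PRK, SBPASE, ATPC1, PSBY, TROL and AT1G74470, and WT 14DAF replicate 2 is the highest point in 7 of 7 panels.

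Taking 16DAF minus 14DAF in KD seeds, the fitted log2 differences of the 7 genes ran from -1.96 ± 0.459 (SE) for AT1G74470 to -0.07 ± 0.217 for SBPASE, with a median of -1.13. The same step in WT seeds ran from -4.64 ± 0.459 for AT1G74470, a 25-fold lower level at 16DAF, to -2.13 ± 0.217 for SBPASE, 4.38-fold lower, with a median of -2.66. Later arrays lay wholly below earlier ones for 6 of 7 genes in KD seeds, where 25.3% of all probe sets did so, and for 7 of 7 in WT seeds, where 23.2% did. Nothing is read from these shares, because the genes were chosen on these contrasts. Without WT 14DAF replicate 2 the WT differences ran from -3.78 to -1.68, with a median of -2.28.

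From 16DAF to dryness the log2 differences in KD seeds ran from -2.64 ± 0.225 (SE) for TROL, 6.21-fold lower in dry seeds, to -0.90 ± 0.414 for ATPC1. In WT seeds they ran from -2.42 ± 0.348 for PSAE-1, 5.35-fold lower in dry seeds, to 0.43 ± 0.459 for AT1G74470. The medians were -1.8 in KD seeds and -1.1 in WT seeds. Dry arrays lay wholly below 16DAF arrays for 7 of 7 genes in KD seeds (30.6% of all probe sets) and for 6 of 7 in WT seeds (30.5%), while AT1G74470 was the one that lay above in WT seeds (35.0%).

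The share of the whole log2 difference between 14DAF and dry seeds that had been reached at 16DAF puts both steps on one scale. For TROL it was 23.0% in KD seeds, with a range of 20.1 to 25.7% over combinations of single arrays, against 83.9% in WT seeds, with a range of 71.2 to 96.0%. For SBPASE it was 4.2% in KD seeds (-2.4 to 10.1%) and 65.9% in WT seeds (54.1 to 76.0%). AT1G74470 had reached 50.5% in KD seeds (41.8 to 60.1%) and 110.2% in WT seeds (100.2 to 128.5%), a value over the whole because its WT level was lowest at 16DAF. These 3 genes therefore showed most of the WT decline before 16DAF and, for TROL and SBPASE, most of the KD decline after it.

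PSBY had reached 33.5% in KD seeds (31.0 to 36.1%) and 61.1% in WT seeds (49.3 to 71.4%). PRK had reached 51.7% in KD seeds (42.4 to 59.8%) and 76.1% in WT seeds (62.6 to 87.5%). The 2 remaining genes overlapped between genotypes. ATPC1 had reached 51.6% in KD seeds (18.9 to 76.3%) and 73.3% in WT seeds (55.7 to 85.9%). PSAE-1 had reached 38.6% in KD seeds (25.6 to 49.4%) and 48.1% in WT seeds (38.1 to 56.1%). Over the 7 genes the median share was 38.6% in KD seeds and 73.3% in WT seeds, and the ranges were apart for 5 of 7. The share was not computed for other probe sets, and the WT shares of all 7 genes use the same WT arrays. Nothing is therefore read from the number of genes with ranges apart. Whether the lower KD share is particular to these genes was not tested.

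**Figure D2:**
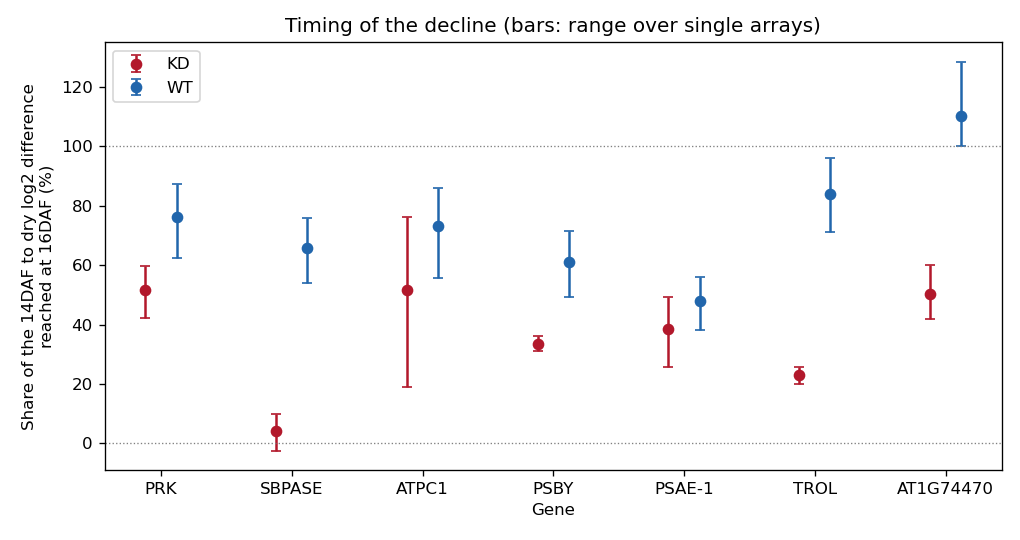
Share, in percent, of each gene's log2 difference between 14DAF and dry seeds that had been reached at 16DAF (vertical axis), for KD and WT seeds side by side in each of the 7 genes (horizontal axis); points are from means of 2 arrays and bars span the values from single arrays. The KD point is below the WT point for 7 of 7 genes, and the bars are apart for PRK, SBPASE, PSBY, TROL and AT1G74470. Shares of other probe sets were not computed.

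Set against WT at the same stage, KD seeds at 14DAF had lower means for 7 of 7 genes. The log2 difference was largest for ATPC1, at -1.68 ± 0.414 (SE), which is 3.19-fold lower in KD seeds, and for PRK, at -1.50 ± 0.451. It was -1.02 ± 0.348 for PSAE-1, -0.99 ± 0.217 for SBPASE, -0.82 ± 0.459 for AT1G74470, -0.78 ± 0.243 for PSBY and -0.08 ± 0.225 for TROL. KD arrays lay wholly below WT arrays for 5 of 7 genes, beside 25.0% of all probe sets. This stage rests heavily on 1 array: without WT 14DAF replicate 2 the median moved to -0.47, against -0.99 with it, and TROL and AT1G74470 were at 0.24 and 0.04.

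At 16DAF KD seeds had higher levels of most of the genes. TROL differed by 2.04 ± 0.225 (SE), 4.1-fold higher in KD seeds, and AT1G74470 by 1.87 ± 0.459, 3.66-fold higher. SBPASE differed by 1.07 ± 0.217, PSBY by 0.75 ± 0.243 and PRK by 0.56 ± 0.451, while PSAE-1 at 0.08 ± 0.348 and ATPC1 at -0.08 ± 0.414 differed by less than their errors. KD arrays lay wholly above WT arrays for 5 of 7 genes, beside 21.5% of all probe sets. In dry seeds the differences ran from -0.48 ± 0.459 for AT1G74470 to 0.70 ± 0.348 for PSAE-1, with a median of 0.04, which turned to -0.05 without the 2 arrays of conflicting source names. Arrays of dry KD seeds lay above those of dry WT seeds for 3 of 7 genes (SBPASE, PSBY and PSAE-1), beside 23.7% of all probe sets.

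The change from 14DAF to 16DAF in KD seeds minus that in WT seeds was positive for 7 of 7 genes, from 1.1 ± 0.492 (SE) for PSAE-1 to 2.69 ± 0.65 for AT1G74470, with a median of 2.06. Without WT 14DAF replicate 2 it remained positive for each of them, from 0.55 to 1.82, with a median of 1.28. From 16DAF to dryness the same difference of changes was -2.35 ± 0.65 for AT1G74470 and -2.08 ± 0.318 for TROL, and between -0.62 and 0.62 for the other 5 genes. The step from 14DAF to 16DAF in WT seeds, the comparison of genotypes at 14DAF and the difference of changes all use the same WT 14DAF arrays.

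**Figure D3:**
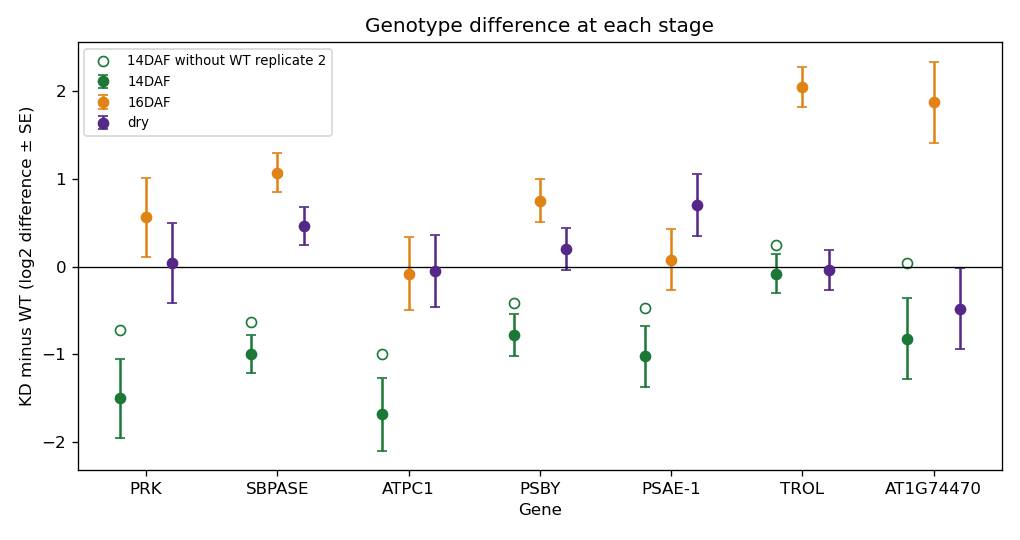
KD minus WT log2 difference (vertical axis) of each of the 7 genes (horizontal axis) at 14DAF, 16DAF and in dry seeds; points are fitted differences and bars are ± SE from 2 arrays a group. Filled points lie below 0 at 14DAF, TROL being closest to 0 at -0.08. Open points give 14DAF without WT 14DAF replicate 2, where TROL is at 0.24 and AT1G74470 at 0.04. At 16DAF 5 of 7 points are above 0 by more than their SE, from 0.56 ± 0.451 for PRK to 2.04 ± 0.225 for TROL.

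Markers of other seed tissues and of RNA quality were read beside these values. Of 17 seed coat genes on the marker list, 4 had a probe set that the platform annotation names with that gene alone. Their summed level, given as the mean log2 of the 4, was 8.48 and 7.66, 6.70 and 6.69, and 5.30 and 5.41 in KD seeds at 14DAF, 16DAF and when dry, against 8.21 and 8.91, 6.50 and 6.45, and 5.33 and 5.39 in WT seeds. The seed coat mean was thus lower at each later stage, and WT 14DAF replicate 2, the array highest for the 7 genes, had the highest mean. Of the 4 genes, BAN was highest in that array, at 8.18, while DELTA-VPE and DFR were highest in KD 14DAF replicate 1 and ARA12 in WT 14DAF replicate 1. BAN, DELTA-VPE and ARA12 passed the limma test as lower at 16DAF than at 14DAF in both genotypes, 3 of 4 beside 9.5% of all probe sets called in KD seeds and 19.5% in WT seeds. On drying DELTA-VPE and DFR fell in both genotypes, while ARA12 rose by 1.01 in KD seeds (adjusted p = 0.00554) and differed by -0.04 in WT seeds (adjusted p = 0.929). Between genotypes at 16DAF DELTA-VPE passed as higher and ARA12 as lower in KD seeds, beside 11.1% of all probe sets called. DELTA-VPE, a vacuolar protease of the seed coat, read 7.24 and 7.73 in KD seeds at 16DAF against 5.44 and 5.81 in WT seeds, while ARA12, a seed coat subtilase, read 8.60 and 8.01 against 9.63 and 9.06. Their part in the results on the 7 genes was not tested.

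Endosperm markers (2 of 11 measured) read between 2.90 and 4.67 in single arrays, where array lower quartiles were 3.67 to 3.78, and the 1 measured silique wall marker of 9, ALC, lay between 3.39 and 4.26. ALC means were 4.03, 3.58 and 3.42 in KD seeds over the stages in turn, against 4.25, 4.01 and 3.53 in WT seeds. ALC passed as lower for 16DAF against 14DAF in KD seeds (-0.46, adjusted p = 0.0352), for dry against 16DAF in WT seeds (-0.48, adjusted p = 0.00684) and for KD against WT at 16DAF (-0.44, adjusted p = 0.036), and its part was not tested. The difference between 3′ and 5′ control probe sets, which grows as RNA is degraded or poorly copied, averaged 3.85 ± 0.37, 3.57 ± 0.25 and 3.40 ± 0.10 in KD seeds over the stages in turn, against 4.11 ± 0.08, 3.90 ± 0.49 and 3.35 ± 0.13 in WT seeds (SD, n = 2 arrays each). It was thus smallest in dry seeds, and its part was not tested. No gene of the 7 was below the lower quartile in both arrays of a group. PRK was below it in replicate 2 of dry KD seeds (3.57 against 3.69) and of dry WT seeds (3.35 against 3.74). Below the array medians were 4 genes in dry KD seeds, 3 in WT seeds at 16DAF and 4 in dry WT seeds. The deposited values hold no detection calls, so how far those levels stand above background is not known and the sizes of the differences against them are uncertain.

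Among themselves the 7 genes correlated over the 12 arrays at 0.808 (TROL with ATPC1) to 0.974 (PSBY with SBPASE), with a median of 0.937 over 21 pairs. With each stage centred on its own mean, which leaves the differences between genotypes and replicates, the same pairs marked the ends of the range, at 0.068 and 0.947, and the median was 0.733. All pairs share the same libraries and 2-array groups, so these figures are descriptions.

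Measured against the mean pattern of the 7 genes over 12 arrays, 458 of 13506 single-gene probe sets (3.39%) had a Pearson correlation above 0.9. The 8 most alike were AT5G57700 at 0.993, AT1G50110 at 0.986, AT3G02700 and AT1G28030 at 0.985, AT4G30500, AT1G61930 and AT3G21310 at 0.984, and AT3G54080 at 0.983. AT5G57700 had group means of 5.72, 4.86 and 3.84 in KD seeds at 14DAF, 16DAF and when dry, against 6.50, 4.55 and 3.78 in WT seeds. By single genes, the closest were AT5G57700 to PRK (0.991), AT3G62120 to SBPASE (0.985), AT3G13030 to ATPC1 (0.987), AT4G29240 to PSBY (0.995), ACLA-1 to PSAE-1 (0.994), AT1G71691 to TROL (0.987) and AT5G13980 to AT1G74470 (0.993). None of these is on the photosynthesis or chlorophyll lists, and which genes lead depends on the measure: 1 of the 8 was among the leading 8 by rank correlation.

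Other genes of the machinery were read from 11 lists of 209 loci. Of these, 43 loci, in 9 lists, had a probe set that the platform annotation names with that gene alone. The annotation does not list 8730 of the 22746 probe sets, so a locus not read here may still have a probe set on the array. No gene of isoprenoid supply or of the chloroplast regulators was measured this way. In the 9 lists coverage ran from 3 of 24 light-harvesting loci to 11 of 30 chlorophyll synthesis loci, so the 43 genes do not stand for the whole machinery. Against the pattern of the 7 genes these 43 had a median correlation of -0.203, near the -0.194 of all single-gene probe sets. Of the 43, 4 exceeded 0.9, beside 3.39% of all single-gene probe sets, and the difference between these shares was not tested. The 4 were AT4G01150 (0.972) of the electron transport list, AT1G56190 (0.97) of the Calvin cycle list, AT1G44000 (0.917) of the chlorophyll breakdown list, and LHCB4.3 (0.914), a form of the minor antenna protein CP29. A list name is a heading only. Whether AT4G01150 or AT4G38100, both on the electron transport list, takes part in electron transport or ATP synthesis was not tested. At the other end HEMA2, a glutamyl-tRNA reductase, stood at -0.867 and GSA1, the next enzyme of chlorophyll precursor synthesis, at -0.857. The 43 genes were tested with limma, with adjusted p over all 22746 probe sets.

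Between 14DAF and 16DAF in KD seeds 2 of the 43 genes rose and 2 fell, together 9.3% beside 9.5% of all probe sets, with a list median of -0.15 against 0.01 over all probe sets. On the log2 scale AT1G56190 fell by 1.18 (adjusted p = 0.0163), AT3G04550 of the Calvin cycle list fell by 0.95, CcdA, which passes reducing power across the thylakoid membrane, rose by 0.64 (adjusted p = 0.0401), and HEMA2 rose by 0.63 (adjusted p = 0.0335). Leaving out KD 14DAF replicate 1 or either KD 16DAF array left 0 of 43 called by limma, with 7 to 10 at an unadjusted p under 0.05.

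The same step in WT seeds called more of the lists: 4 rose and 13 fell, 39.5% beside 19.5% of all probe sets (9.2% higher and 10.3% lower), with a median of -0.44 against 0.05. Shares of all probe sets are not given for the fits without single arrays. Whether the excess over all probe sets holds without WT 14DAF replicate 2 is therefore not known. AT1G56190 fell by 2.73 ± 0.244 (SE; adjusted p = 7.36e-05), alone among 5 Calvin cycle genes called. Of 11 chlorophyll synthesis genes 3 fell and 1 rose: CHLM, the methyltransferase of the magnesium branch, fell by 2.02 ± 0.38 (adjusted p = 0.00422), LIL3:2, one of the light-harvesting-like proteins that hold geranylgeranyl reductase in the membrane, fell by 1.42 ± 0.198 (adjusted p = 0.000822), and GSA1 rose by 0.80 ± 0.174 (adjusted p = 0.0088, and 0.0596 without WT 14DAF replicate 1). Of 3 chlorophyll breakdown genes 2 fell, and NOL, a chlorophyll b reductase, fell by 1.48 ± 0.157 (adjusted p = 0.000182). LHCB4.3 was the one of 3 light-harvesting genes called, and fell by 1.36 ± 0.275 (adjusted p = 0.00634, and 0.0625 without WT 14DAF replicate 2). Without that array 9 genes were called, 2 higher and 7 lower, and 20 without WT 14DAF replicate 1.

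From 16DAF to dryness most calls among these 43 measured genes ran the other way from the 7 genes in both genotypes. In KD seeds 15 of the 43 rose and 6 fell, 48.8% beside 34.9% of all probe sets (19.6% higher and 15.3% lower), with a median of 0.27 against 0.03. HCF101, an iron-sulfur cluster carrier for photosystem I, rose by 2.82 ± 0.232 (SE; adjusted p = 8.02e-06), CYTC6A, a lumenal cytochrome, by 2.48 ± 0.17 (adjusted p = 2.52e-06) and CcdA by 2.22 ± 0.167 (adjusted p = 4.77e-06). LHCB4.3 fell by 2.58 ± 0.275 (adjusted p = 4.35e-05), AT1G44000 fell by 2.46 ± 0.163 (adjusted p = 1.99e-06), AT4G01150 fell by 1.61 (adjusted p = 0.0025) and AT1G56190 fell by 1.38 (adjusted p = 0.00126).

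In WT seeds 18 of the 43 rose on drying and 3 fell, 48.8% beside 37.3% of all probe sets (20.4% higher and 16.9% lower), with a median of 0.35 against 0.02. CYTC6A rose by 3.53 ± 0.17 (SE; adjusted p = 2.79e-07), HCF101 by 2.86 ± 0.232 (adjusted p = 6.98e-06) and CcdA by 1.88 ± 0.167 (adjusted p = 1.26e-05). LHCB4.3 fell by 2.09 ± 0.275 (adjusted p = 0.000174), while LHCB4.2, another CP29 form, rose by 1.28 ± 0.338 (adjusted p = 0.0125, and 0.0799 to 0.0837 on leaving out WT 16DAF replicate 2 or WT dry replicate 1). All 3 measured photorespiration genes rose in both genotypes, with medians of 1.92 in KD seeds and 2.25 in WT seeds. One of them, HPR, which encodes peroxisomal hydroxypyruvate reductase, rose by 0.82 in KD seeds (adjusted p = 0.032) and by 1.76 in WT seeds (adjusted p = 0.000392), and its KD call was lost on leaving out either KD 16DAF array or KD dry replicate 1 (adjusted p of 0.0531 to 0.243).

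**Figure D4:**
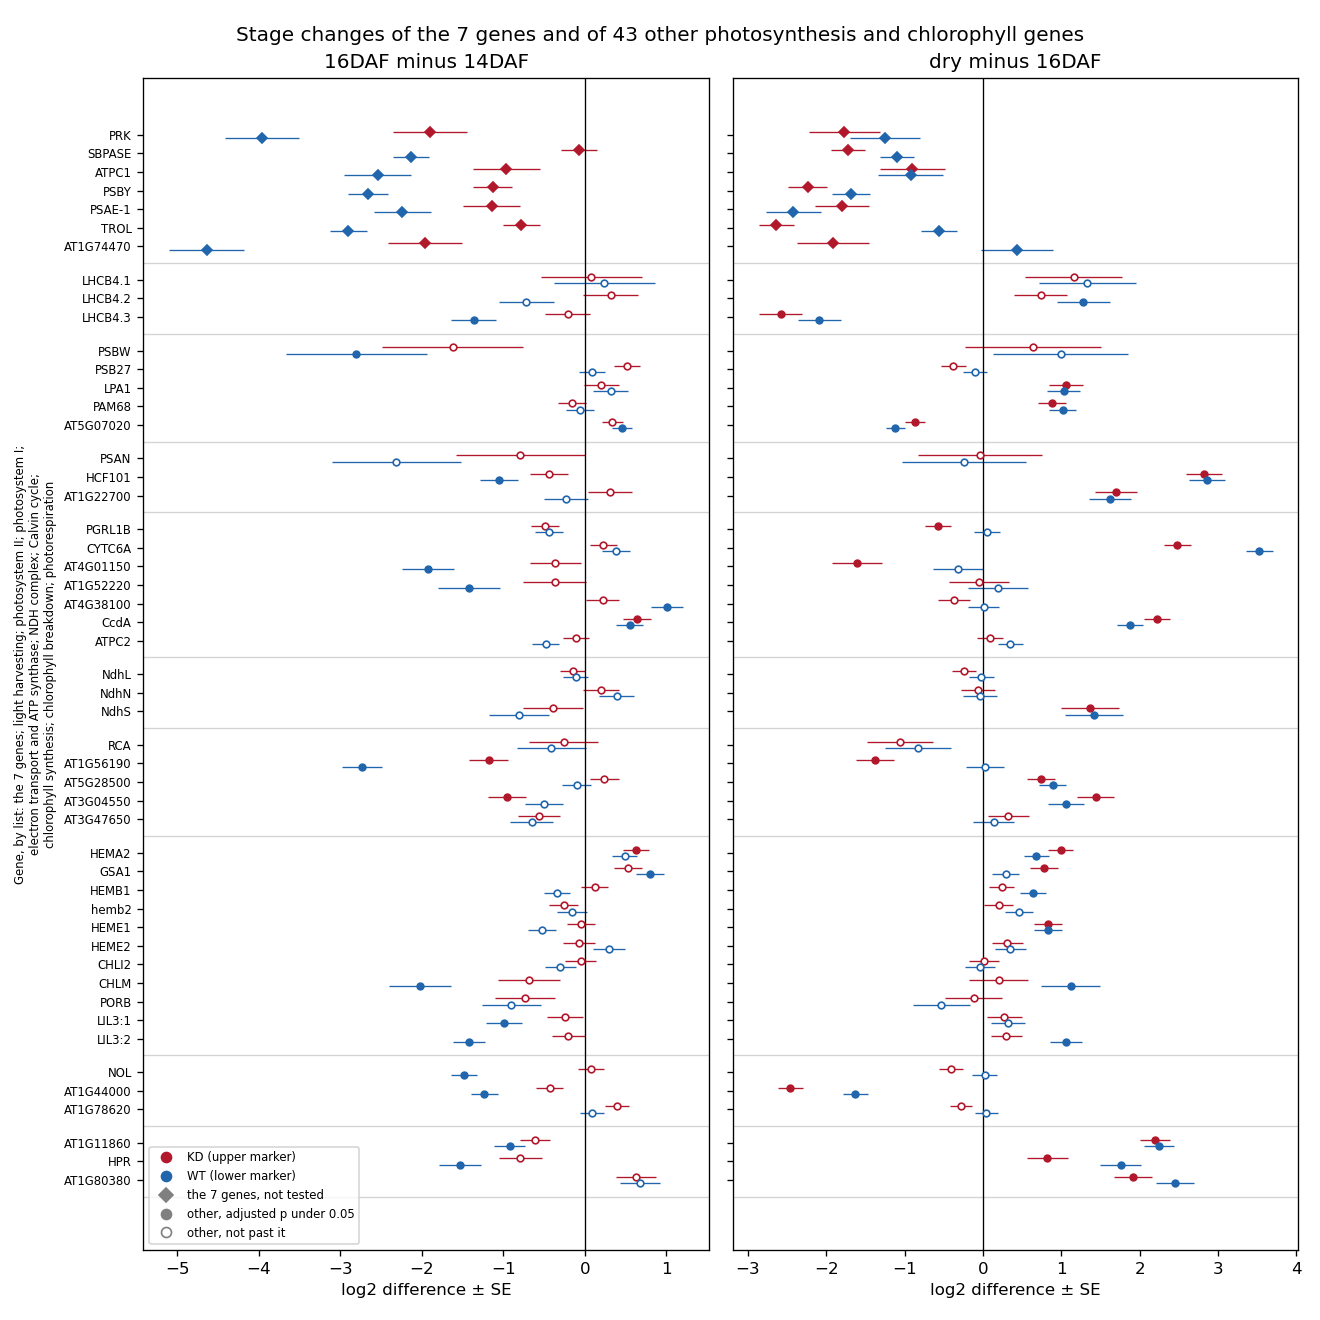
Log2 differences ± SE (horizontal axis) between 16DAF and 14DAF (left) and between dry and 16DAF seeds (right) for the 7 genes (diamonds, not tested) and 43 other photosynthesis and chlorophyll genes (vertical axis, by list), with KD drawn above WT in each row; filled markers passed limma at an adjusted p under 0.05. On drying 15 of the 43 were called higher in KD seeds and 18 in WT seeds, while the 7 genes lie to the left of 0 apart from AT1G74470 in WT seeds at 0.43.

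Between genotypes the 43 genes gave few calls. At 14DAF 1 was higher and 5 lower in KD seeds, 14.0% beside 7.27% of all probe sets, with a median of -0.31 against 0.01. Here too, shares of all probe sets are not given for the fits without single arrays. AT4G38100 of the electron transport list was 1.38 ± 0.199 (SE) higher (adjusted p = 0.00345), and HCF101 was lower, at -1.08 ± 0.232 (adjusted p = 0.022, and 0.157 without KD 14DAF replicate 2 or 0.177 without WT 14DAF replicate 2). Without WT 14DAF replicate 2, and likewise without KD 14DAF replicate 2, 1 gene was called higher and 0 lower, and without WT 14DAF replicate 1 there were 1 higher and 13 lower.

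At 16DAF 4 genes were higher and 1 lower in KD seeds, 11.6% beside 11.1% of all probe sets. Those higher were AT1G56190, by 0.89 ± 0.244 (SE; adjusted p = 0.0423), NOL, by 0.77 ± 0.157 (adjusted p = 0.0112), AT1G44000, by 0.76, and HEME1, a uroporphyrinogen decarboxylase of chlorophyll and haem synthesis, by 0.76, and CcdA was lower, at -0.71 (adjusted p = 0.0226). Leaving out either KD 16DAF array left 0 of 43 called by limma, with 9 to 10 at an unadjusted p under 0.05. In dry seeds 1 gene was higher and 3 were lower, 9.3% beside 7.91% of all probe sets. HPR was lower, at -1.24 ± 0.26 (adjusted p = 0.0172, and 0.122 to 0.156 on leaving out WT dry replicate 1 or KD dry replicate 2). PGRL1B, a protein of cyclic electron transport, was lower, at -1.08 ± 0.168 (adjusted p = 0.00375), as was CYTC6A, at -0.97 ± 0.17 (adjusted p = 0.00721, and 0.0673 to 0.0686 without KD dry replicate 2 or WT dry replicate 2).

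A test of whether the step from 14DAF to 16DAF differed between genotypes called 1 of the 43 genes, beside 0.356% of all probe sets. NOL read 7.05 ± 0.014 at 14DAF and 7.13 ± 0.092 at 16DAF in KD seeds, against 7.83 ± 0.247 and 6.35 ± 0.042 in WT seeds (SD, n = 2 arrays each), and its change in KD seeds exceeded that in WT seeds by 1.55 ± 0.222 (SE; limma adjusted p = 0.0292). That call was lost without WT 14DAF replicate 2 (adjusted p = 0.113) and under several other settings, up to an adjusted p of 0.124. For the step from 16DAF to dryness 0 of 43 were called, beside 1.38% of all probe sets, with 7 at an unadjusted p under 0.05.

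The genes encoded in the plastid genome itself, of which 33 of 33 listed were measured, were set beside the 7 nuclear genes by a list drawn up after the data were seen. Between 14DAF and 16DAF 0 rose and 10 fell in KD seeds, with a median log2 difference of -0.56 and beside 9.5% of all probe sets called, and 0 rose and 16 fell in WT seeds, with a median of -0.78 and beside 19.5%. On drying 0 rose and 13 fell in KD seeds, with a median of -0.64 and beside 34.9% of all probe sets called, against 2 that rose and 10 that fell in WT seeds, with a median of -0.19 and beside 37.3%. Between genotypes limma called 0 of 33 at 14DAF, 1 higher and 5 lower in KD seeds at 16DAF and 0 higher and 9 lower in dry seeds, with medians of -0.01, 0.01 and -0.46, beside 7.27%, 11.1% and 7.91% of all probe sets called. Whether the plastid-encoded and nuclear genes differ in these steps was not tested. How fully the 2-cycle labelling copies plastid transcripts was not tested either, so these signals may not follow the amount of those transcripts.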

How the data were processed

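RNA of excised seeds was hybridised to 12 one-colour Affymetrix ATH1 arrays. The deposited values are log2 signal per probe set, normalized between arrays by the authors; per the submitters' processing notes RMA and Partek were used, with no settings stated. RMA values are compressed at low signal, so differences against dim levels can understate change. No scanner files or detection calls were used, and precision is limited by the number of arrays.

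Of 22810 probe sets, 64 controls were removed and 22746 tested. The platform annotation names 1 gene for 13513 of them and several for 503, and does not list 8730; 13436 were matched to a TAIR10.1 locus. A limma 3.58.1 model (R 4.3.3) of 6 group means with eBayes gave 9 contrasts, tested two-sided with Benjamini-Hochberg adjustment over all probe sets and a threshold of 0.05. A prior of 4.16 degrees of freedom joined the 6 residual ones. Groups followed the titles, with a title of WS taken as WT. The test was checked on simulated data. The 7 genes, the gene lists and the naming rule were chosen with earlier results of these data known. Named were the 7 genes, in each list and contrast up to 3 called genes of largest change with genes of a shared enzyme or complex, the 8 of most similar pattern, and the closest to each of the 7. Alternatives were array centring, quantile normalization, a filter at a mean log2 of 5, an intensity trend in eBayes, a replicate block, the contrast's own arrays, rank correlation, leaving out each array, and leaving out the 2 arrays with conflicting source names. A planned promoter motif search was not run, as promoter sequences were not used here.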

Additional observations from a re-analysis of the deposited data

Results flagged for a closer look

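For PRK, SBPASE and PSBY, both KD arrays lay below both WT arrays at 14DAF and above both at 16DAF, so the genotype difference had opposite signs at these stages. KD minus WT was -1.50 at 14DAF and 0.56 at 16DAF for PRK, -0.99 and 1.07 for SBPASE, and -0.78 and 0.75 for PSBY, on the log2 scale. Without WT 14DAF replicate 2 the 14DAF values were -0.72 for PRK, -0.63 for SBPASE and -0.41 for PSBY. The difference between stages was not tested for these genes, since they were chosen on these arrays. Of all probe sets, 25.0% had KD arrays wholly below WT arrays at 14DAF and 21.5% had them wholly above at 16DAF. The share showing both was not counted, so nothing is read from the number of these genes or of those named next.

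NOL also had KD arrays below WT arrays at 14DAF (-0.78) and above them at 16DAF (0.77), and limma's test of the difference between the KD and WT steps gave 1.55 (adjusted p = 0.0292). That call was lost in 12 settings, among them without WT 14DAF replicate 2 (adjusted p = 0.113), with the replicate block (0.0604) and with the contrast's own arrays (0.124). AT4G01150 (-0.70 and 0.86), AT1G56190 (-0.66 and 0.89), CHLM (-0.74 and 0.60) and LIL3:2 (-0.64 and 0.57) had opposite signs in the same way, and their differences between steps did not pass limma's test. Without WT 14DAF replicate 2 their 14DAF values were -0.12 for AT4G01150, -0.24 for AT1G56190, -0.22 for CHLM and -0.57 for LIL3:2. Groups of 2 arrays are too small to check for outlying samples.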

How the results depend on the processing

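The counts and medians kept their direction under most alternatives. Shares of all probe sets called are not given for the alternatives, so nothing is read from their counts against all probe sets. With the arrays of each contrast alone, limma called 8 of the 43 pathway genes between 16DAF and 14DAF in WT seeds, 3 between genotypes at 14DAF, 0 at 16DAF (13 at an unadjusted p under 0.05) and 7 in dry seeds, and for the difference between steps 0 up to 16DAF (10 unadjusted) and 1 up to dryness. Leaving out single arrays gave ranges of 9 to 20 called for the WT step to 16DAF, 0 to 4 for the KD step to 16DAF (0 in 3 settings), 1 to 14 between genotypes at 14DAF, 0 to 7 at 16DAF and 1 to 5 in dry seeds, and 0 to 5 and 0 to 1 for the differences between steps up to 16DAF and dryness (0 in 10 settings each, with 7 to 10 and 3 to 9 at an unadjusted p under 0.05). The medians of the 7 genes ranged from -3.22 to -2.28 for the WT step to 16DAF, from -1.58 to -0.47 for KD minus WT at 14DAF and from 1.28 to 2.42 for the difference between steps up to 16DAF. KD minus WT at 14DAF for AT1G74470 ranged from -1.68 to 0.04, the positive value without WT 14DAF replicate 2, where TROL also turned positive, at 0.24. The lowest count for the WT step came without WT 14DAF replicate 2, and that between genotypes at 14DAF came without WT 14DAF replicate 2 and also without KD 14DAF replicate 2; the cause was not tested. Of the 8 genes most alike in pattern, 1 stayed by rank correlation and 4 after leaving out both arrays of conflicting source names. Deviations of same-numbered arrays correlated at -0.33 to 0.417 between groups, with no common sign. The highest value was between KD and WT seeds at 16DAF, so whether same-numbered arrays were linked there is not settled. With the replicate block the difference between steps up to 16DAF had 0 limma calls (9 at an unadjusted p under 0.05), and no other count moved by over 1.5 times. The promoter motif search was not run. Without detection calls, low levels in dry seeds are the least certain.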
